A study of Mus musculus with 10 samples.

Results

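Interferon-induced genes are genes whose transcription rises when a cell receives an interferon signal. The 40 genes described here form a group of such genes, and the rule that lists them uses no measured value: Ifit1, Ifit2, Ifit3, Isg15, Irf7, Irf9, Stat2, Oasl1, Oasl2, Oas1a, Oas2, Oas3, Mx1, Mx2, Rsad2, Usp18, Ifi44, Ifi35, Ifih1, Ddx58, Dhx58, Cmpk2, Rtp4, Zbp1, Gbp2, Gbp3, Igtp, Irgm1, Iigp1, Psmb8, Psmb9, Tap1, Bst2, Xaf1, Parp9, Parp14, Trim25, Herc6, Ifitm3 and Lgals3bp. The list was, however, chosen with earlier results of these data known. A probe on the array belonged to a member when its gene symbol included that name. 38 of the 40 were named on the array by 40 of its 26423 probes, and 36 remained among the 16113 genes measured once low probes, those that read under 1 on any scaled array, had been dropped. No probe carried the symbols Ifit3 or Oas1a, and the probes of Mx1 and Psmb9 did not pass.

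The samples were left ventricles of male C57BL/6J mice, 8 weeks of age at surgery, that had received either transverse aortic banding (TAB), which narrows the aorta and loads the ventricle with pressure, or a sham operation. The mRNA was measured at 5 time points (3, 5, 7, 14 and 28 days from the operation) with 1 TAB and 1 sham sample at each, 10 samples in all, and the number of mice in a sample is not given in the sources used here. The question was how TAB changed these genes over the 5 days. A ratio on a single day has no replicate check, so that tests were made only across days, of the average and of its change from early to late days, and their p-values measure the spread of the ratios between days, which holds time as well as error. The TAB sample of day 14 carries a second label of 15 days and was used as day 14. Raw intensities had medians between 34 and 57 per array, and each array had 40.2% to 47.3% of its spots under the flag read here as not found. Of 8 cardiomyocyte marker genes, such as Myh6 and Tnnt2, all were found on all 10 arrays and 0 passed the test below (limma, lowest adjusted p = 0.054), with Tnni3 (mean log2 ratio −0.44 ± 0.12) and Ryr2 (−0.36 ± 0.11) lower in TAB on all 5 days. Myl2 read 65495 or more on 9 arrays, near the top of the scale, and could show little difference.

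As background, type I interferons signal through the receptor subunits Ifnar1 and Ifnar2 and the kinases Jak1 and Tyk2 to a complex that holds Stat2 and Irf9 and binds the interferon-stimulated response element (ISRE). Interferon-gamma signals through Ifngr1 and Ifngr2, Jak1 and Jak2, and its target genes carry the gamma-activated site (GAS). The products sense foreign RNA and DNA, block virus entry and replication, attach the ubiquitin-like protein ISG15, attack the membranes around intracellular microbes, and prepare peptides for presentation to T cells.

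The core of an ISRE can be written as 2 copies of GAAA separated by any 2 bases, and a common form of the GAS as TTCNNNGAA. RefSeq promoter windows of the mouse build GRCm38.p6, from 250 bases before to 50 bases after the start of a gene, were at hand for 30 of the 40 members. The ISRE core was present on either strand in 15 of the 30, against 3.99% of the 27025 genes with a window (3.44% of all 32851 windows), and TTCNNNGAA in 7 of the 30, against 9.55% of genes (8.30% of windows). Stretches of 45 bases are shown for 6 members whose TAB values stood above sham on days 5 and 7, and for 2 members, Oas3 and Rsad2, that carry the same letters and took another course. Each is given 5′ to 3′ on the strand of the gene with the ISRE core in capitals, and a core on the opposite strand reads TTTC, 2 bases, TTTC. Overlapping cores run together in Isg15, Irgm1 and Bst2.
Ifit1, chr19:34640770-34640814, plus strand: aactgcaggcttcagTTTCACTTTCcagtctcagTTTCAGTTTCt
Isg15, chr4:156200867-156200911, minus strand: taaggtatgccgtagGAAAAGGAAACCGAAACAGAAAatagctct
Bst2, chr8:71537573-71537617, minus strand: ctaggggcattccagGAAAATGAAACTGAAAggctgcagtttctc
Gbp2, chr3:142620589-142620633, plus strand: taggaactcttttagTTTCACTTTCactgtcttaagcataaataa
Igtp, chr11:58199507-58199551, plus strand: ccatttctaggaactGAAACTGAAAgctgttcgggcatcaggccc
Irgm1, chr11:48871421-48871465, minus strand: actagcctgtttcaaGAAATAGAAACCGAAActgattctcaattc
Oas3, chr5:120777705-120777749, minus strand: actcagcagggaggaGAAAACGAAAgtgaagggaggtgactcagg
Rsad2, chr12:26456543-26456587, minus strand: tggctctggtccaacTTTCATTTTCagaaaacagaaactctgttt
Counted from the start of the gene, the first core began at −104 in Ifit1, −78 in Isg15, −130 in Bst2, −59 in Gbp2, −34 in Igtp, −30 in Irgm1, −75 in Oas3 and −120 in Rsad2. Among the 27 members with both a window and a measurement, the median log2 ratio of TAB over sham on day 7 was 1.51 in the 13 with an ISRE core and 1.19 in the 14 without, and on day 3 it was −0.15 and 0.15. On day 5 it was 1.25 and 1.20, and the median of the mean over the days was 0.52 and 0.64. None of these differences was tested. A match of letters is not a measured binding site, and no binding was measured here.

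In TAB hearts the interferon-induced genes were highest relative to sham on days 5 and 7 and had come back close to the sham sample of that day by day 28, a sham sample that was the highest of the 5 for 21 of the 36 members. The median log2 ratio of the 36 measured members started at 0.12 on day 3, reached 1.20 and 1.34 on days 5 and 7, and was 0.39 and 0.08 on days 14 and 28. Over all 16113 genes the median stayed between −0.06 and −0.01 on the 5 days. The number of members with a ratio above 0 was 22, 33, 34, 31 and 20 of 36 on the 5 days in turn, and ratios of at least 2-fold were seen for 2, 24, 26, 3 and 1 of them. The shares of all genes past these cuts were not counted. The largest of the 5 ratios fell on day 5 for 11 members and on day 7 for 22, which makes 33 of 36, whereas 36.8% of all genes had their largest ratio on one of these days. The other 3 were Trim25 and Oas3, with their largest ratio on day 14, and Rsad2 on day 28.

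**Figure D1:**
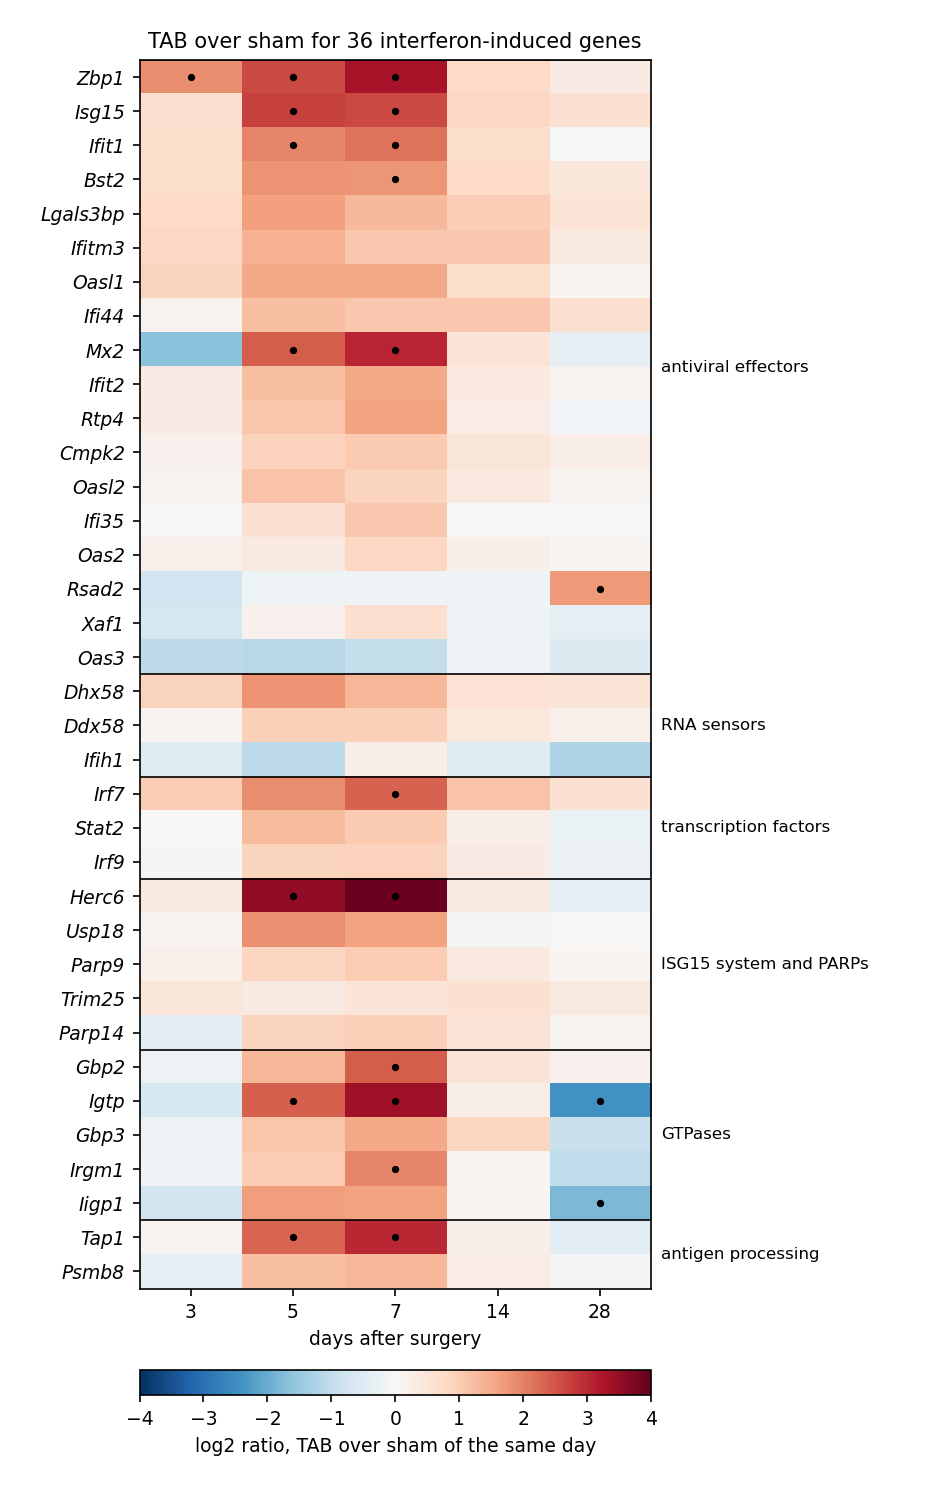
Heat map of the log2 ratio of TAB over sham (colour) for the 36 measured interferon-induced genes (rows, grouped by role) on days 3, 5, 7, 14 and 28 (columns). A black dot marks a ratio beyond 2 SDs of all genes that day, and 18 of the 22 dots lie on days 5 and 7.

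By the rule of the study, a differentially expressed (DE) gene is one whose ratio lies over 2 SDs of all genes of that day away from 0 on the log2 scale, a threshold of 1.71, 1.86, 1.69, 1.42 and 1.33 on days 3, 5, 7, 14 and 28. Up-regulated were 1 of 36 members on day 3 (Zbp1; 3.19% of all genes), 7 on day 5 (Ifit1, Isg15, Mx2, Zbp1, Igtp, Tap1 and Herc6; 4.10%), 11 on day 7 (the same genes with Irf7, Gbp2, Irgm1 and Bst2; 3.98%), 0 on day 14 (3.49%) and 1 on day 28 (Rsad2; 3.46%). Down-regulated were 0 members on days 3, 5, 7 and 14, against 1.99%, 1.44%, 1.46% and 2.15% of all genes, and 2 on day 28, Igtp and Iigp1, against 2.29%. These calls rest on 1 sample per operation and have no error of their own, and those of Mx2, Zbp1 and Herc6 are against sham spots that were not found, as was the TAB spot of Zbp1 on day 3.

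Over the 5 days together, 9 of 36 members were higher in TAB (Irf7, Oasl1, Ifi44, Dhx58, Zbp1, Bst2, Trim25, Ifitm3 and Lgals3bp) and 1 was lower (Oas3), by limma with day as a block and adjustment over all genes at 0.05. Of all 16113 genes, 9.51% were called higher and 8.22% lower, that is 1533 and 1324 genes, and with quantile normalization within each operation 1939 and 978 genes. The members' counts moved with the treatment of dim spots, to 3 higher (Mx1, Ifitm3 and Lgals3bp) and 0 lower with probes below 1 set to 1 (3.51% and 2.18% of all genes) and to 15 higher and 1 lower with 50 added before log2 (13.6% and 13.3%). The mean log2 ratio was above 0 for 33 of the 36 members, and the 5 daily medians averaged 0.63. All 5 TAB values lay above all 5 sham values for 9 members, Isg15, Irf7, Oasl1, Cmpk2, Zbp1, Bst2, Trim25, Ifitm3 and Lgals3bp (9.92% of all genes), and below them for 1, Oas3 (7.72%). With day 3, 5 or 7 left out 0 of 36 members were called in either direction, and calls were few over the whole array too, with 34, 179 and 37 of 16113 genes called (0.186%, 0.869% and 0.205% of all genes higher). The mean ratio of Irf7 was 1.49, 1.29 and 1.15 in these fits (limma, n = 4, adjusted p from 0.0735 to 0.0826). With day 14 left out only Oas3 was called (4.18% of all genes higher and 3.01% lower), and with day 28 left out 10 members were higher and 1 lower (9.52% and 8.36%).

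**Figure D2:**
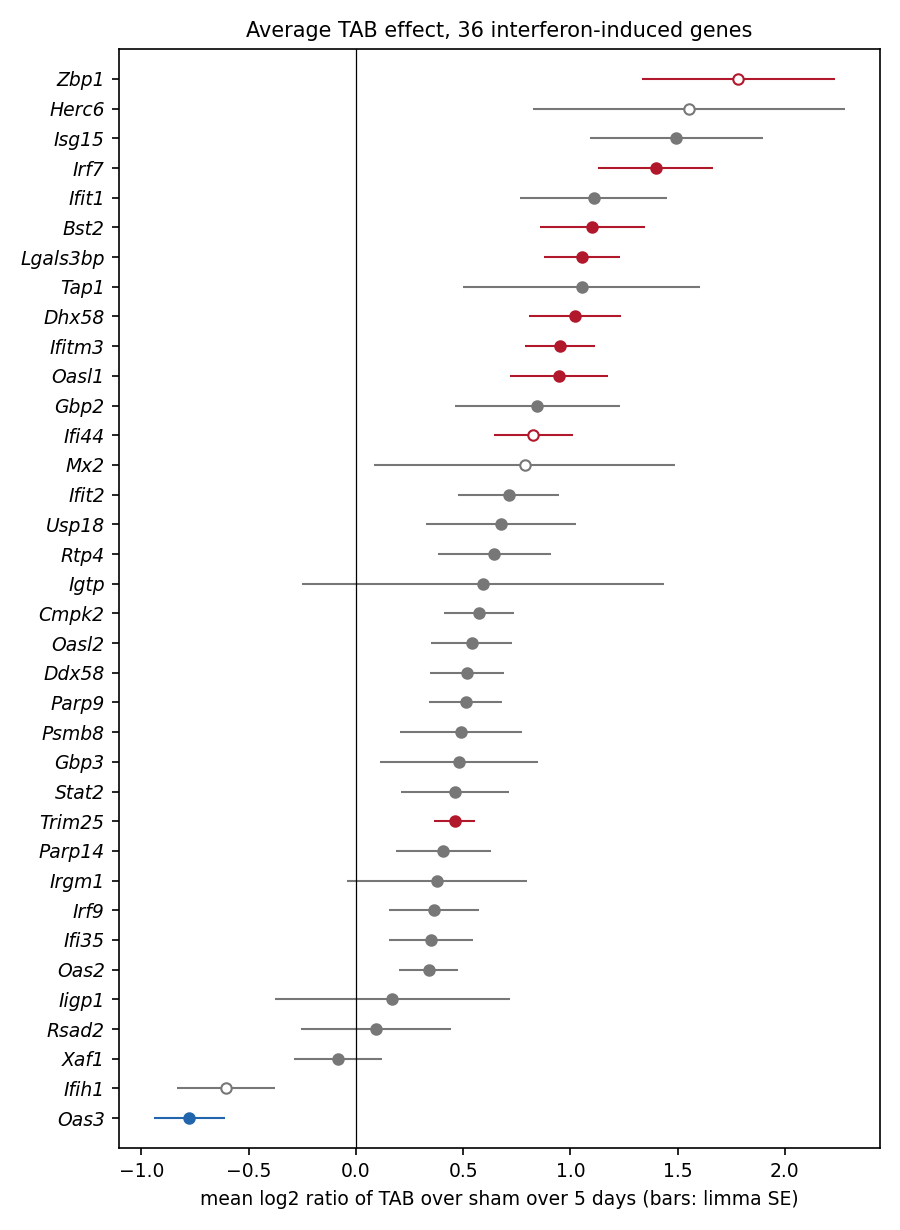
Mean log2 ratio of TAB over sham over the 5 days (points) with the standard error from limma (bars) for the 36 measured interferon-induced genes. Red marks an adjusted p under 0.05 and higher in TAB, blue the same and lower, grey the rest, and open points a probe not found on all 10 arrays; the means run from −0.78 for Oas3 to 1.78 for Zbp1.

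Among the transcription factors of the response, Irf7, the factor that amplifies type I interferon production, changed most. Its normalized intensity was 1004, 1467, 1677, 587 and 642 in the TAB samples of days 3, 5, 7, 14 and 28, and 493, 407, 324, 265 and 424 in the sham samples, and lists of 5 values below keep this order of days. TAB was higher on every day, and the lowest TAB value stood above the highest sham value. The mean log2 ratio was 1.40 ± 0.27 (limma SE, n = 5 days, adjusted p = 0.0252). Stat2 and Irf9, subunits of the complex that binds the ISRE, had ratios of 1.25 and 0.89 on day 5 and 1.05 and 0.91 on day 7, and between −0.26 and 0.34 on the other days. Their averages, 0.46 ± 0.25 and 0.36 ± 0.21, did not pass (limma, n = 5, adjusted p = 0.242 and 0.263).

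The antiviral effectors were the largest group, with 18 of 21 members measured, of which 6 rose, 1 fell and 11 did not pass the test (9.51% of all genes higher and 8.22% lower). Ifitm3, a membrane protein that hinders virus entry, had values of 7035, 9534, 8148, 6102 and 5215 in TAB and 3971, 3649, 3830, 2875 and 4033 in sham. Bst2 (tetherin), which holds budding viruses at the cell surface, had 3016, 3738, 4196, 2205 and 2073 in TAB and 1870, 1075, 1229, 1262 and 1515 in sham. Lgals3bp, a secreted glycoprotein that binds galectins, had 2212, 2871, 2352, 1491 and 1408 in TAB and 1266, 926, 960, 749 and 963 in sham. None of the 3 had overlapping groups, and in all of them the 3 early TAB values were the highest. Their mean log2 ratios were 0.95 ± 0.16 (adjusted p = 0.0213), 1.10 ± 0.24 (adjusted p = 0.033) and 1.05 ± 0.18 (adjusted p = 0.0208) by limma over 5 days.

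Isg15, the ubiquitin-like modifier that gives its name to much of the response, had 211, 491, 626, 195 and 183 in TAB and 134, 74, 100, 109 and 120 in sham. The groups did not overlap, and the TAB values of days 5 and 7 stood far above the other 3. Its mean log2 ratio of 1.49 ± 0.40 narrowly missed the threshold (limma, n = 5, adjusted p = 0.0508). Ifit1, which binds RNA that lacks the host's cap modification, had 160, 318, 373, 124 and 162 in TAB and 98, 81, 83, 77 and 162 in sham, and Ifit2, its relative, had 350, 665, 857, 407 and 474 in TAB and 277, 291, 298, 308 and 438 in sham. In both the sham sample of day 28 stood above the other sham samples, and the means of 1.11 ± 0.34 and 0.71 ± 0.24 did not pass (limma, n = 5, adjusted p = 0.0717 and 0.0836).

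The 2′-5′-oligoadenylate synthetase family and its relatives did not move together. Oasl1, a relative without synthetase activity, had 130, 201, 153, 84 and 81 in TAB and 70, 71, 54, 51 and 74 in sham, a mean log2 ratio of 0.95 ± 0.23 (limma, n = 5, adjusted p = 0.0395). Oas3, an active synthetase whose product activates RNase L, went the other way, with 90, 93, 103, 130 and 137 in TAB and 188, 200, 201, 149 and 201 in sham. Every Oas3 value of TAB lay below every value of sham, and the mean was −0.78 ± 0.17 (limma, n = 5, adjusted p = 0.0304). Oas2 and Oasl2 had ratios between 0.06 and 1.15 on all days and means of 0.34 ± 0.14 and 0.54 ± 0.19, which did not pass (limma, n = 5, adjusted p = 0.134 and 0.0948). Members of such families share sequence, and whether a probe also bound a relative's RNA was not tested.

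**Figure D3:**
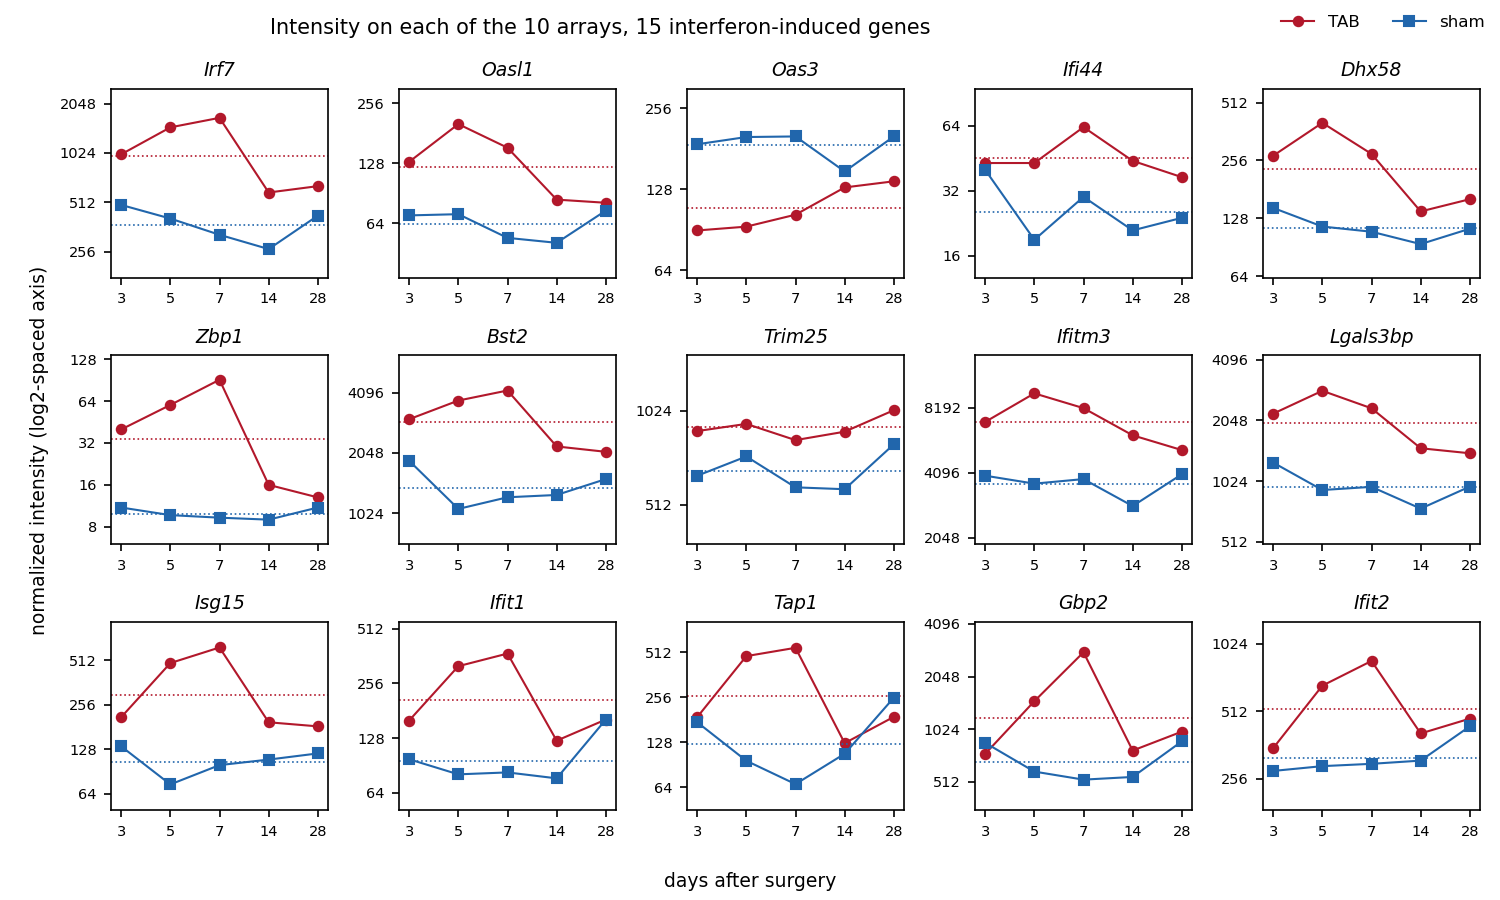
Normalized intensity (log2-spaced axes that differ between panels) on each of the 10 arrays for the 10 called members and the 5 further members among the 12 with the largest absolute mean ratio of those found on all 10 arrays, against days after surgery (TAB red circles, sham blue squares, dotted lines the geometric mean of each group). The TAB values of Isg15, Ifit1, Tap1, Gbp2 and Ifit2 stand out on days 5 and 7, and Oas3 has TAB below sham on every day.

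Some effectors were near the background of the array. Zbp1, a sensor of Z-form nucleic acid that can start cell death, was found on the TAB arrays of days 5 and 7 and on no sham array, with 40, 60, 91, 16 and 13 in TAB and 11, 9.7, 9.3, 9 and 11 in sham. Its fitted mean log2 ratio was 1.78 ± 0.45 (limma, n = 5, adjusted p = 0.0437). With sham values raised to at least the lowest signal of found spots, the TAB mean was 3.17-fold higher. That TAB mean holds spots that were not found, so that the size of the change is not known. Ifi44, a cytoplasmic protein, was found on 5 TAB and 2 sham arrays, with 43, 43, 63, 44 and 37 in TAB and 40, 19, 30, 21 and 24 in sham. Its mean log2 ratio was 0.83 ± 0.18 (limma, n = 5, adjusted p = 0.033), although the groups overlapped. The call was lost with median scaling only (adjusted p = 0.0591) and with probes below 1 set to 1 (adjusted p = 0.0626). Mx2, a dynamin-like GTPase, was found on 4 arrays, those of TAB on days 5 and 7 (210 and 270) and of sham on days 3 and 28 (161 and 47), and did not pass (mean 0.79 ± 0.70, limma, n = 5, adjusted p = 0.463).

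The remaining effectors were found on all 10 arrays and did not pass. Cmpk2, a mitochondrial nucleotide kinase, had 842, 945, 1066, 776 and 772 in TAB and 754, 504, 518, 549 and 643 in sham, without overlap (0.57 ± 0.16, limma, n = 5, adjusted p = 0.0592). Rtp4 and Ifi35 had their highest ratios on day 7, 1.61 and 1.09, and means of 0.64 ± 0.26 and 0.35 ± 0.20 (limma, n = 5, adjusted p = 0.136 and 0.249). A second probe of Rtp4 gave a mean of 0.81. Xaf1, a pro-apoptotic protein, had a mean of −0.08 ± 0.20 (limma, n = 5, adjusted p = 0.814), with ratios from −0.70 on day 3 to 0.64 on day 7, and was 0.07 without day 3.

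Rsad2 (viperin), an enzyme that makes a chain-terminating nucleotide, had a course unlike that of most other effectors. It read 776, 992, 923, 991 and 1162 in TAB and 1331, 1110, 1020, 1105 and 355 in sham. TAB was below sham on days 3, 5, 7 and 14, as it was for Oas3. The ratio of 1.71 on day 28 came with the low sham value of that day. The mean of 0.09 ± 0.35 did not pass (limma, n = 5, adjusted p = 0.878) and was −0.31 without day 28. This course differs from that of Cmpk2, its neighbour in the genome, which had ratios above 0 on all 5 days.

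Of the 3 sensors of foreign RNA, 1 was called higher and 0 lower (9.51% and 8.22% of all genes). Dhx58 (LGP2), which modulates the other sensors, had 271, 402, 277, 139 and 161 in TAB and 145, 116, 109, 94 and 113 in sham. Only the TAB sample of day 14 fell below the highest sham value, and the mean log2 ratio was 1.02 ± 0.21 (limma, n = 5, adjusted p = 0.0299). Ddx58 (RIG-I), a sensor of short RNA with a triphosphate end, had ratios between 0.07 and 0.95 and a mean of 0.52 ± 0.17 (limma, n = 5, adjusted p = 0.084). Ifih1 (MDA5), a sensor of long double-stranded RNA, was found on 6 of 10 arrays, with 17, 27, 37, 17 and 26 in TAB and 24, 56, 31, 24 and 62 in sham. Its mean of −0.61 ± 0.23 did not pass (limma, n = 5, adjusted p = 0.112).

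In the ISG15 and ubiquitin group, Trim25, the ubiquitin ligase that activates RIG-I, rose. It had 883, 931, 826, 879 and 1030 in TAB and 635, 732, 583, 575 and 801 in sham, and its ratios, 0.35 to 0.61, had no peak on days 5 and 7 (mean 0.46 ± 0.10, limma, n = 5, adjusted p = 0.0299). Usp18, the protease that removes ISG15 and dampens the receptor, had 69, 186, 142, 62 and 78 in TAB and 66, 52, 47, 66 and 79 in sham. It was apart from sham on days 5 and 7 and level with it on days 3, 14 and 28 (mean 0.68 ± 0.35, limma, n = 5, adjusted p = 0.22). Herc6, the ligase that attaches ISG15 in the mouse, had 49, 77, 92, 41 and 38 in TAB and 38, 6.6, 6.1, 32 and 50 in sham. Its sham spots of days 5 and 7 were not found, so that the size of the ratio on those days is not known, and the mean of 1.55 ± 0.73 did not pass (limma, n = 5, adjusted p = 0.181). A second Herc6 probe did not pass the filter. Parp9 and Parp14, which belong to the ADP-ribosyltransferase family, had means of 0.51 ± 0.17 and 0.41 ± 0.22 and also did not pass (limma, n = 5, adjusted p = 0.0855 and 0.24).

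The 5 GTPases known as targets of interferon-gamma had ratios of both signs over the 5 days, and none passed the test of the average. Igtp (Irgm3), which acts on the vacuoles of intracellular parasites, had 904, 2878, 4563, 456 and 806 in TAB and 1422, 545, 433, 382 and 4366 in sham. Iigp1 (Irga6), which coats such vacuoles, had 976, 2895, 3134, 733 and 1273 in TAB and 1625, 904, 1017, 694 and 4422 in sham. Irgm1, a regulator of this family, had 492, 857, 1290, 361 and 460 in TAB and 545, 425, 332, 337 and 936 in sham. In all 3 the TAB samples of days 5 and 7 and the sham sample of day 28 were high, the sham sample of day 3 stood above those of days 5, 7 and 14, and the rest were low.

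The guanylate-binding proteins Gbp2 and Gbp3 help to break open such vacuoles. Gbp2 had 740, 1481, 2822, 773 and 992 in TAB and 856, 586, 527, 546 and 873 in sham. Gbp3 had 909, 1569, 1777, 867 and 648 in TAB and 1041, 721, 622, 475 and 1209 in sham. The means were 0.59 ± 0.85 for Igtp, 0.17 ± 0.55 for Iigp1, 0.38 ± 0.42 for Irgm1, 0.85 ± 0.39 for Gbp2 and 0.48 ± 0.37 for Gbp3 (limma, n = 5, adjusted p from 0.172 to 0.857). Without day 28 they were 1.35 ± 0.72, 0.66 ± 0.46, 0.73 ± 0.38, 1.01 ± 0.44 and 0.83 ± 0.30, still short of the threshold (limma, n = 4, adjusted p from 0.111 to 0.352). Without day 7 they were −0.11, −0.19, −0.01, 0.45 and 0.22, and without day 5 that of Iigp1 was −0.21, so that the sign for Igtp, Iigp1 and Irgm1 rests on single days.

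**Figure D4:**
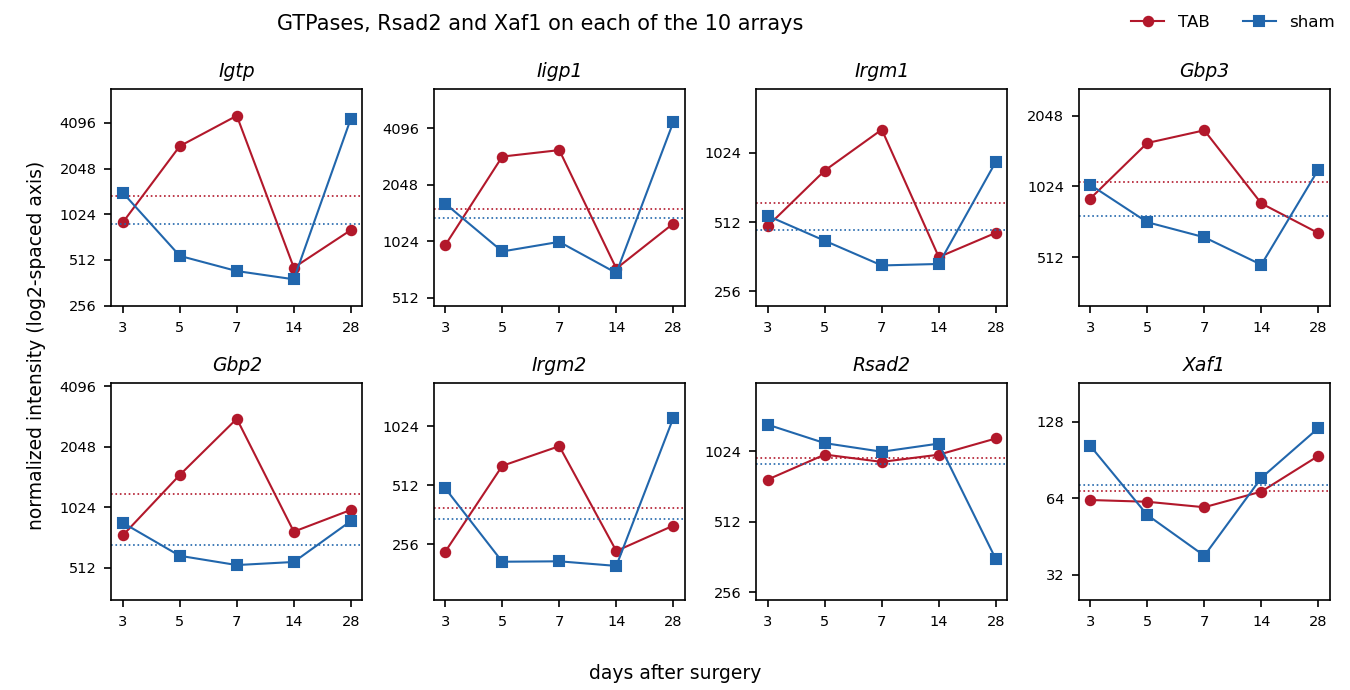
Normalized intensity (log2-spaced axes that differ between panels) on each of the 10 arrays for the 5 GTPases among the members, their relative Irgm2, Rsad2 and Xaf1, against days after surgery (TAB red circles, sham blue squares, dotted lines the geometric mean of each group). Igtp, Iigp1, Irgm1 and Irgm2 are high in the TAB samples of days 5 and 7 and in the sham sample of day 28, where Rsad2 is low.

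The sham sample of day 28 was thus part of several results. It was the highest of the 5 for 21 members and that of day 3 for 14, against 21.4% and 22.0% of all genes. The TAB value of Ifit1 on day 28 (162), for example, was level with it and above the other 4 sham values. For Ddx58 it was that of day 14. A sham sample of a single day has no replicate, and whether its values came from the animal, the time or the array cannot be told apart. With no day block, 14 members were called higher and 1 lower with that sample (12.1% and 10.3% of all genes) and 15 and 1 without it (10.4% and 8.52%).

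Of the genes of antigen processing, Tap1, which carries peptides into the endoplasmic reticulum, had 188, 482, 548, 126 and 189 in TAB and 174, 96, 67, 107 and 254 in sham. Psmb8, a subunit of the immunoproteasome, had 604, 1117, 1581, 677 and 805 in TAB and 772, 485, 623, 551 and 825 in sham. Both stood above all sham values on days 5 and 7 and within the sham range on the other days. The means were 1.05 ± 0.55 and 0.49 ± 0.28 (limma, n = 5, adjusted p = 0.224 and 0.264), and without day 7 they were 0.56 and 0.28.

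The change of the effect with time was tested as the mean log2 ratio of days 14 and 28 minus that of days 3, 5 and 7. It was negative for 32 of 36 members, and the share of all genes with a negative value was not counted. By limma 0 of 36 passed the adjusted threshold, and of all 16113 genes 0 passed (lowest adjusted p = 0.167). At an unadjusted p under 0.05 there were 1822 of the 16113 genes and 4 of the 36 members, a similar share. The members were Oasl1, Oas3, Dhx58 and Zbp1, the last with a spot found on 2 of 10 arrays. The difference was positive for Oas3 (0.67) and negative for Oasl1 (−0.89), Dhx58 (−0.81) and Zbp1 (−2.03). Days 3, 5 and 7 form 1 group in this test, although the members differed between day 3 and days 5 and 7.

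**Figure D5:**
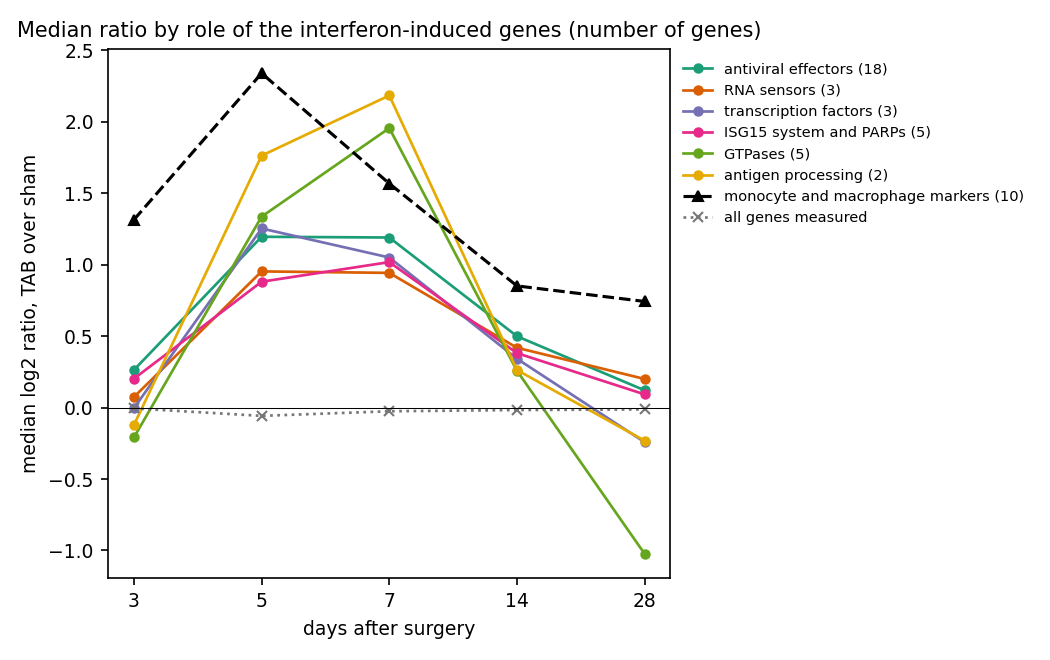
Median log2 ratio of TAB over sham for the 6 role groups of the interferon-induced genes, for 10 monocyte and macrophage markers and for all genes measured, on days 3, 5, 7, 14 and 28 (number of genes in brackets). Role groups lie between −0.21 and 0.26 on day 3 and between 0.94 and 2.18 on day 7, while the macrophage markers are at 1.32 on day 3 already.

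Markers of other cells moved as well, set against 9.51% of all genes called higher and 8.22% called lower. All 10 measured monocyte and macrophage markers of a list of 12 rose (Ptprc, Cd68, Csf1r, Adgre1, Itgam, Mrc1, Aif1, Ccr2, Cx3cr1 and Mertk; limma, adjusted p under 0.05), by means between 0.55 for Mertk and 2.21 for Cx3cr1, with median ratios of 1.32, 2.34, 1.57, 0.85 and 0.74 on the 5 days, and their summed intensity was 3377 to 8615 in TAB and 2140 to 2631 in sham. With day 3, 5 or 7 left out 0, 1 and 0 of the 10 were called, and with day 14 or 28 left out 7 and 10, against the shares of all genes given above for these fits. On day 3 the median marker stood at 1.32 while the median member was at 0.12. Of 4 neutrophil markers only S100a8 passed, at spots found on no array, and of 4 fibroblast markers Col1a2, Col3a1 and Postn rose. Of the lymphocyte markers, Cd3g, Cd4 and Cd8a were found on at most 1 array and Cd3e fell (−0.59 ± 0.12, limma, n = 5, adjusted p = 0.0299), and of 4 markers of plasmacytoid dendritic cells, strong producers of type I interferon, none passed and Siglech was found on no array, while Tcf4 was called higher with median scaling only or quantile normalization within each operation. Of 6 endothelial markers none passed, the mean furthest from 0 being that of Fabp4 (−0.51 ± 0.18, limma, n = 5, adjusted p = 0.102). In bulk tissue more cells of a type and more RNA per cell cannot be told apart, and the part of these cells in the members' ratios was not tested.

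The other genes of the pathway were taken from fixed lists. Of 19 interferon genes, 2 were measured, of which Ifna12 was found on no array and Ifne on 1, so that neither of these 2 was well above background, and the call of Ifne as lower (limma, adjusted p = 0.0405) rests on such spots. The other 17, Ifnb1 and Ifng among them, were not measured here. Of 10 receptors and signalling genes measured, 3 rose and 0 fell (9.51% and 8.22% of all genes), and with median scaling only or quantile normalization within each operation 5 rose, with Ifnar1 and Jak2 added. The 3 were Ifngr1 (0.56 ± 0.13), the ligand-binding chain for interferon-gamma, and the transcription factors Irf5 (1.18 ± 0.22) and Irf8 (0.99 ± 0.23) of myeloid cells. Tyk2 (−0.58 ± 0.16) and Irf1 (−0.54 ± 0.16) were lower in TAB on all 5 days and did not pass (limma, n = 5, adjusted p = 0.0517 and 0.0615). Ifnar2 did not pass the filter on low values. With day 3, 5 or 7 left out 0 of the 10 were called higher (0.186%, 0.869% and 0.205% of all genes), and with day 14 or 28 left out 1 was (4.18% and 9.52%). Of 11 genes that sense nucleic acids upstream of interferon, 1 rose, near the share of all genes (9.51%): Tlr7, a receptor for single-stranded RNA (0.89 ± 0.21). Ifi204, with the largest fitted mean, was found on 3 TAB arrays and no sham array and did not pass (limma, n = 5, adjusted p = 0.0832). Of 5 inhibitors none passed, Socs3 coming closest with 1.36 ± 0.38 (limma, n = 5, adjusted p = 0.0542) and called higher with either of the 2 other scalings.

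Of 33 further genes known to respond to type I interferon, 7 rose and 1 fell (9.51% and 8.22% of all genes). Those that rose were Ifi27l2a (1.13 ± 0.17), Isg20 (1.16 ± 0.15), Slfn2 (0.99 ± 0.25), Lgals9 (0.82 ± 0.16), a probe shared by Ifitm2 and another symbol (0.72 ± 0.11), Ly6e (0.67 ± 0.13) and Tdrd7 (0.36 ± 0.09), and Slfn1 fell (−0.44 ± 0.11), a call not made with median scaling only or with quantile normalization within each operation. With day 3, 5 or 7 left out 0 of the 33 were called higher (0.186%, 0.869% and 0.205% of all genes), with day 14 left out 4 (4.18%) and with day 28 left out 8 (9.52%). The largest mean was that of a probe shared by Phf11 and other symbols, which did not pass (1.23 ± 0.45, limma, n = 5, adjusted p = 0.105). The median ratio of this list was 0.24, 0.65, 0.69, 0.20 and 0.07 on the 5 days. Of 19 further GTPases and antigen presentation genes, 1 rose and 1 fell, against 9.51% and 8.22% of all genes. The chemokine gene Ccl5 rose, with its spot found on 4 TAB arrays and no sham array, so that the size of its ratio is not known. With sham values raised to at least the lowest found signal it was 3.64-fold higher. Psme1, a proteasome activator, fell (−0.43 ± 0.10), a call also not made in these 2 settings. With day 3, 5, 7 or 14 left out 0 of the 11 sensing genes and 0 of these 19 were called, and with day 28 left out 2 and 3 were called higher and 0 lower. Irgm2, a relative of Igtp, had 234, 642, 809, 236 and 318 in TAB and 493, 208, 209, 198 and 1128 in sham, the same high samples as Igtp.

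Cxcl10, a chemokine induced by both kinds of interferon, had the largest mean ratio of this list as fitted, although the size of that of Ccl5 is not known. It had 149, 381, 521, 53 and 51 in TAB and 19, 32, 23, 36 and 49 in sham. TAB was far above sham on days 3, 5 and 7 and near it on days 14 and 28, and the mean of 2.33 ± 0.70 did not pass (limma, n = 5, adjusted p = 0.0663). Unlike most of the 36 members it was already high on day 3, with a ratio of 2.98. Its spot was found on 5 TAB arrays but only 4 sham arrays, so that its sham values lay near background.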

How the data were processed

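The authors deposited 1-colour raw intensity per probe and array for 10 left-ventricle mRNA samples (Mouse Whole Genome OneArray v2, Cy5, GenePix), already corrected for background by a method not given in the sources used here, and not scaled between arrays. Deposited spot flags of 0 were read as found and other values as not found. Deposited detection p-values were not used. Symbols are those of the array's design, and probes without one were left out.

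As in the paper's methods, arrays were first median-scaled, then probes under 1 on any array were dropped (19976 of 26423 remained), then a quantile normalization over the 10 arrays, with rank medians as targets, was applied and log2 taken. The paper takes these medians for each condition, so this step may depart from it; the version for TAB and sham arrays apart was an alternative. A gene was represented by its brightest probe, since the study's choice of the probe with the largest change uses the contrast tested; that choice was an alternative. TAB and sham of the same day were paired, as in the study's ratios.

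Tests were limma 3.58.1 in R 4.3.3 (lmFit and eBayes, day as a block, trend and robust off) with Benjamini-Hochberg adjustment over all 16113 genes at 0.05. On simulated data for the average effect over these 16113 genes, 55% of 100 genes changed by a log2 value of 1 and 80% of 100 changed by 2 were recovered, with 8 false calls. For Zbp1 and Ccl5 the fold compares the TAB mean with, per sham array, the higher of its own value and the lowest found signal. TAB spots that were not found stay in the TAB mean, so that these folds are not lower bounds. The number of arrays limits the precision. Python 3.11.15, numpy 2.4.6 and pandas 2.3.3 were also used.

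The members and lists were chosen with earlier results of these data known. All 40 members are accounted for, and values on all 10 arrays are given at least for those called and for the 12 whose mean ratio was furthest from 0 among probes found on all arrays. From other lists, called genes and the largest mean are named. Iigp1, Irgm1, Igtp, Gbp3, Rsad2, Usp18, Cmpk2, Ifih1, Psmb8, Herc6, Irgm2 and Cxcl10 are given in full beyond this rule, chosen after their values were seen. Promoter windows are RefSeq's, from a table that does not hold every gene. The miRNA arrays were not analysed here. Some genes of the pathway and marker lists are not reported here.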

Additional observations from a re-analysis of the deposited data

Results flagged for a closer look

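In 72 groups of 5 samples (36 members in TAB and in sham), 6 held a sample far from the other 4 by Dixon's criterion, which flags about 1 in 20 groups by chance. The gap of that sample as a share of the group's range was 0.768 for Ifit2 in sham, where day 28 was highest (438), and 0.799 for Rsad2 in sham, where day 28 was lowest (355). It was 0.761 for Oas3 in sham, where day 14 was lowest (149), 0.759 for Mx2 in sham, where day 3 was highest (161), and 0.714 for Ddx58 in sham, where day 5 was lowest (51.4). In TAB it was 0.763 for Parp14, where day 3 was lowest (242). Of the 6, 5 were in sham and 2 of these were the sample of day 28.

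Mx1, a GTPase that blocks influenza viruses, was left out of the comparisons because sham values were below 1. With probes below 1 set to 1 it was called higher in TAB (limma, adjusted p under 0.05). Its raw intensity was 11, 44, 15, 4 and 7 in TAB on days 3, 5, 7, 14 and 28 and 3, 4, −2, 3 and −1 in sham, and its spot was found on 1 of 10 arrays, that of TAB on day 5 with 44.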

How the results depend on the processing

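The count of 9 members called higher (9.51% of all genes) was 15 with 50 added before log2 (13.6%), 14 without the dimmest tertile (17.4%), 14 with only probes found on all 10 arrays (17.1%), 15 with trend and robust on (13.3%) and 3 with probes below 1 set to 1 (3.51%), where 0 were called lower. Those 3 were Mx1, measured only in that setting, Ifitm3 and Lgals3bp. The same-day TAB and sham samples deviated from their group means with a correlation across genes of r between −0.0044 and 0.134 over all genes and between −0.36 and 0.52 over the members, and with no replicate block 14 members were called higher and 1 lower (12.1% and 10.3% of all genes). With no replicate block and without the sham sample of day 28, an alternative chosen after seeing the data, 15 were called higher (10.4%), and the groups of 12 members did not overlap with TAB above (11.1%). With one day left out, members called higher ranged from 0 to 10 and lower from 0 to 1. The 20 up-regulated calls over the days were 39 with 50 added, 31 with only found probes and 56 with a log2 ratio of at least 1, and ranged from 9 to 20 with a day left out. The 2 down-regulated calls were 5 with 50 added, 4 without the dimmest tertile, 4 with probes below 1 set to 1 and 8 with a log2 ratio of at least 1, and 0 to 2 with a day left out. The shares of all genes called on each day in these settings are not given here. Whether these daily counts changed more than those of all genes is therefore not known. Members with TAB above sham ranged from 9 to 15, and below from 1 to 2, with a day left out (11.5% to 14.6% and 9.30% to 14.4% of all genes). The cause of these changes was not tested, and the fits with a day left out also have fewer samples. The mean of the daily medians, 0.63, stayed between 0.45 and 0.76 with a day left out and between 0.51 and 0.70 in the other settings, and no effect of the 15 members given in full under the naming rule changed sign. Quantile normalization within each operation called 11 members higher (1939 of all 16113 genes) and median scaling only 10 (1843), with Isg15 called in both and Ifi44 not called in the latter, where 0 members were up-regulated on day 3. In both, 5 receptors and signalling genes were called higher, 1 inhibitor and 1 plasmacytoid marker were, and Slfn1 and Psme1 were not called. With the probe of largest change or the mean of all probes 9 members were called higher (9.19% and 8.99% of all genes) and 2 genes of nucleic acid sensing. Zbp1, Ifi44, Mx2, Ifih1 and Herc6 are limited by signal near background.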
